A study of Mus musculus with 15 samples.

Results

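The insulin-like growth factor (IGF) binding proteins measured here are 6 genes, Igfbp2, Igfbp3, Igfbp4, Igfbp5, Igfbp6 and Igfbp7, out of 56980 genes in the table of transcript levels. They were picked as a family by symbol, through the Ensembl identifiers of the table, by a rule that uses no measured values but was set with earlier results of these data known. All 6 were found, and 5 of them passed the filter on low values in each tissue. RNA was sequenced from the tibialis anterior muscle (TA) and the heart of DBA/2-mdx mice, which lack dystrophin and develop a severe muscular dystrophy. The 15 libraries, each from 1 mouse, fall into 4 groups by tissue and treatment, and a group without the mdx genotype was not analysed here. TA came from 4 mice given vehicle and 4 given D+Q, the senolytic combination of dasatinib, a tyrosine kinase inhibitor, and quercetin, a plant flavonol. These mice were dosed 2 times per week for 2 months, from 3 months of age until collection at 5 months. Hearts came from 4 vehicle mice and 3 D+Q mice, dosed at the same frequency for 4 months, from 12 months of age until collection at 16 months. All 4 D+Q TA were labelled male, both groups of vehicle mice had 2 males and 2 females, and the D+Q hearts were labelled 1 male (replicate 3) and 2 females.

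IGF binding proteins are secreted. Most bind the growth factors IGF-I and IGF-II with high affinity outside the cell, which keeps the factors from their receptor, carries them in the blood or holds them in the matrix, and proteases that cut the binding proteins release the factors again. IGF signalling is known in skeletal muscle and heart for promoting growth and repair, and several binding proteins are also secreted by senescent cells.

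Levels are given in TPM, a transcript abundance scaled for transcript length, so that levels of different genes can be compared within a library. Every library sums to 1000000 TPM, the reads behind a value are unknown, and all precision below comes from the spread between mice. In bulk tissue, fewer cells of a type and less RNA per cell cannot be told apart. The labels and the sex genes matched in 14 of the 15 libraries. The library labelled as male D+Q heart replicate 3 had 47.2 TPM of Xist and 0.0438 TPM summed over 4 Y-linked genes, so values without it are also given for the members tested in heart, and for Igf1, Irs1, Igf2r, Ctsd and the marker lists with lower sums in D+Q hearts where they change. D+Q hearts also had fewer genes above 0 (22579 to 22818) than vehicle hearts (24089 to 25378), and their 10 most abundant genes held 45.4% to 47.3% of the TPM against 50.1% to 50.7%. The part of this in the results below was not tested. Skeletal muscle markers summed to 40359 TPM or more in every TA, and cardiac muscle markers to 13881 TPM or more in every heart.

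In GRCm39, with GENCODE M39 annotation, all 6 are protein-coding genes of 4 or 5 exons. Igfbp2 (ENSMUSG00000039323, chr1:72863606-72891634, plus strand) and Igfbp5 (ENSMUSG00000026185, chr1:72897091-72914043, minus strand) face each other tail to tail, 5.5 kb apart, with 0 protein-coding genes between them. Igfbp3 (ENSMUSG00000020427, chr11:7156086-7164179, minus strand) lies 3.5 kb from Igfbp1 in the same arrangement. Igfbp4 (ENSMUSG00000017493, chr11:98932064-98945218, plus strand) is on the same chromosome at a distance, while Igfbp6 (ENSMUSG00000023046, chr15:102052697-102057953, plus strand) and Igfbp7 (ENSMUSG00000036256, chr5:77493130-77555931, minus strand) stand on chromosomes of their own.

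Igfbp4, Igfbp5 and Igfbp6 had the smallest p-values of the family in the heart, and the 150 bases before the start of their main annotated transcript are shown to compare what precedes each gene. They were read from GRCm39 on the strand of the gene, 5′ to 3′, ending at the base before the start: chr11:98931914-98932063 (plus) for Igfbp4, chr1:72914044-72914193 (minus) for Igfbp5 and chr15:102052547-102052696 (plus) for Igfbp6. Capitals mark a match to the TATA box TATAAA, the GC box GGGCGG or the E-box CACGTG, searched on both strands.
Igfbp4: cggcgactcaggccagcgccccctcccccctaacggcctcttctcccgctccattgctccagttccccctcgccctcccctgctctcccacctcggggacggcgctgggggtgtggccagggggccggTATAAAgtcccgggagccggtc
Igfbp5: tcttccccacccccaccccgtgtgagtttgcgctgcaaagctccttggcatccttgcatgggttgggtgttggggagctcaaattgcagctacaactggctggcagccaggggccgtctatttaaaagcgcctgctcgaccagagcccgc
Igfbp6: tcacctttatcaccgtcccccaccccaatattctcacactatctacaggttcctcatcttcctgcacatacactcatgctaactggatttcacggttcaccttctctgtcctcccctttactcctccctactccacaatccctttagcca
The only match in these 3 stretches was a TATAAA in Igfbp4, 22 bases before the start. Over the full 250 bases searched, Igfbp6 held a TATAAA 224 bases before its start, and Igfbp5 and Igfbp3 held none of the 3 motifs. Igfbp2 held 3 GC boxes and 1 E-box, and Igfbp7 held 4 GC boxes. Over the promoters of 21770 protein-coding genes, 11.9% held a TATAAA, 36.3% a GC box and 6.26% the E-box. GC content ran from 50.0% in Igfbp6 to 73.2% in Igfbp7, against a median of 53.2% over all promoters, and CpG counts from 6 to 26 against a median of 8. These matches describe the letters only.

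The family was dominated by Igfbp5 and Igfbp7 in both tissues, with their order exchanged. In TA the levels ran Igfbp5, Igfbp7, Igfbp4, Igfbp6, Igfbp3 and Igfbp2 from highest to lowest. In heart they ran Igfbp7, Igfbp5, Igfbp4, Igfbp3, Igfbp6 and Igfbp2. The ranges of Igfbp4 and Igfbp6 overlapped in both TA groups, and those of Igfbp5 and Igfbp7 overlapped in D+Q TA but not in vehicle TA. In vehicle heart, Igfbp5 overlapped with Igfbp4 and Igfbp3 with Igfbp6, and in D+Q heart no neighbours overlapped.

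**Figure D1:**
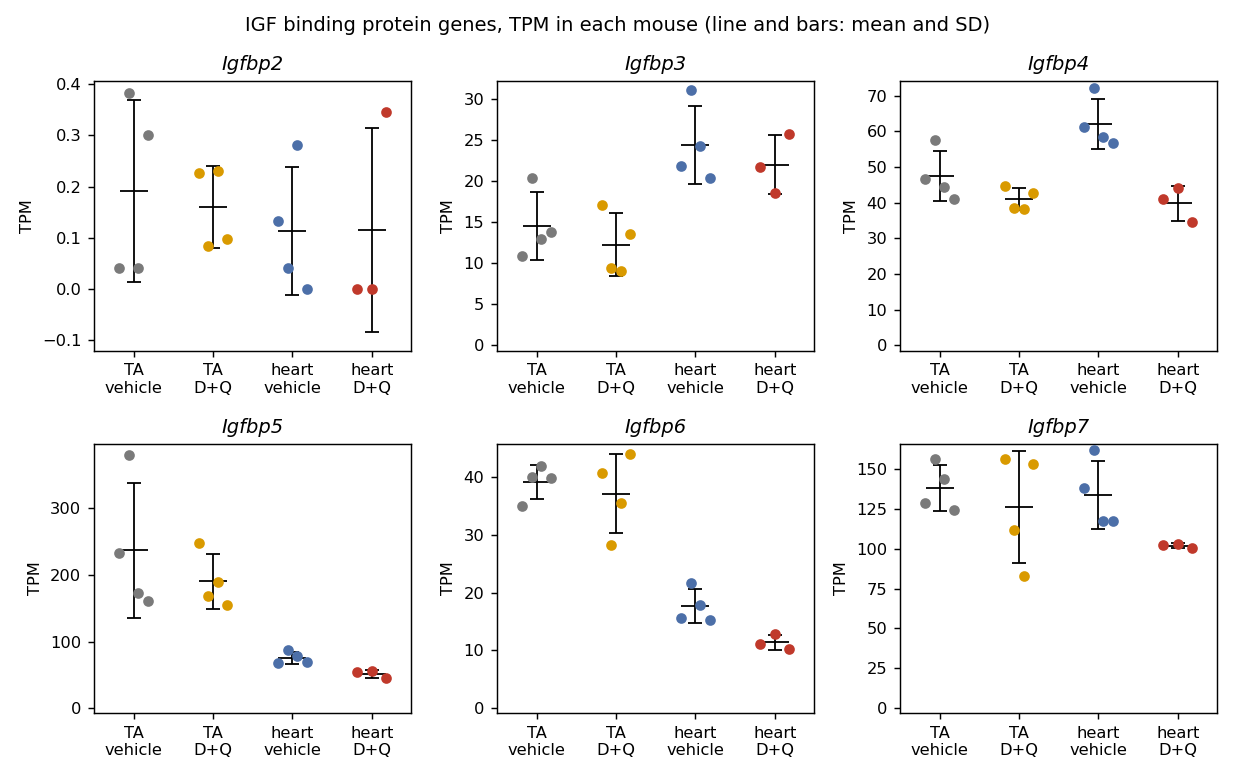
TPM of each IGF binding protein gene (vertical axes, one scale per gene) in every mouse of the 4 groups, with 1 point per mouse and the mean and SD in black. Igfbp4, Igfbp5, Igfbp6 and Igfbp7 lay lower in all 3 D+Q hearts than in all 4 vehicle hearts, and Igfbp5 and Igfbp6 were higher in every TA than in every heart.

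In D+Q hearts, Igfbp4 and Igfbp5 were lower than in vehicle hearts, and Igfbp6 and Igfbp7 lay below the vehicle range without passing the test. Differences are on the scale of log2(TPM + 0.5), from limma with labelled sex in the model, and a gene is called at an adjusted p (Benjamini-Hochberg, over all 16132 genes tested) under 0.05 with an absolute log2 fold change above 0.5. Called members numbered 2 of 5 tested, both lower, where 0.316% of all genes tested were called in either direction and 0.211% were called lower. TPM of all D+Q hearts lay below all vehicle hearts for 4 of the 5 members, and for 5.57% of all genes. An unadjusted p under 0.05 was reached by 4 of the 5 members and by 17.6% of all genes. The members' log2 fold changes were all negative with a median of -0.59, while 50.5% of all genes were negative with a median of -0.0025.

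Igfbp5, which binds extracellular matrix as well as IGFs and is made by muscle and connective tissue cells, had 54.2, 56.2 and 45.0 TPM in the 3 D+Q hearts and 67.8, 86.6, 78.6 and 69.6 TPM in the 4 vehicle hearts. The highest D+Q heart lay below the lowest vehicle heart, and the vehicle females (replicates 2 and 3) lay above the vehicle males. The means were 51.8 ± 5.96 TPM (SD, n = 3) and 75.7 ± 8.70 TPM (SD, n = 4). Igfbp5 was 1.5-fold lower with D+Q, a log2 fold change of -0.59 (SE 0.06, 95% interval -0.72 to -0.45, adjusted p = 0.0284, limma), the 7th smallest p of all genes tested. A two-sided exact permutation test over the 35 splits of the 7 hearts gave p = 0.0286, the smallest it can give.

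Igfbp4, which holds IGFs away from their receptor until the protease PAPP-A cuts it, had 41.1, 44.0 and 34.5 TPM in D+Q hearts and 61.3, 72.2, 58.3 and 56.8 TPM in vehicle hearts. Again the groups did not overlap, and D+Q replicate 3 was the lowest heart while vehicle replicate 2 was the highest. Mean levels of Igfbp4 were 39.9 ± 4.90 TPM (SD) over the 3 D+Q hearts and 62.2 ± 6.96 TPM (SD) over the 4 vehicle hearts. It was 1.59-fold lower, with a log2 fold change of -0.67 (SE 0.09, 95% interval -0.88 to -0.46, adjusted p = 0.042, limma; exact permutation p = 0.0286).

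Igfbp6, which prefers IGF-II over IGF-I, had 11.1, 12.8 and 10.2 TPM in D+Q hearts and 15.6, 21.7, 17.9 and 15.4 TPM in vehicle hearts. All D+Q hearts were under all vehicle hearts. Its log2 fold change of -0.65 (SE 0.09, 95% interval -0.87 to -0.43) was close to that of Igfbp4 in size, and its adjusted p of 0.0561 from limma missed the threshold (exact permutation p = 0.0286).

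Igfbp7, which binds IGFs only weakly and is known as a secreted product of vessels and of senescent cells, had 102, 103 and 100.4 TPM in D+Q hearts and 138, 162, 117.3 and 117.4 TPM in vehicle hearts. The 3 D+Q hearts were within 3 TPM of each other, and vehicle replicates 3 and 4 lay nearest to them. The log2 fold change was -0.39 (SE 0.12, 95% interval -0.66 to -0.12, adjusted p = 0.156, limma; exact permutation p = 0.0857).

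Igfbp3, the main carrier of IGFs in blood, had 21.7, 18.6 and 25.7 TPM in D+Q hearts and 21.9, 31.0, 24.3 and 20.3 TPM in vehicle hearts. The groups overlapped, and the log2 fold change of -0.15 had a 95% interval from -0.54 to 0.24 (adjusted p = 0.681, limma). Igfbp2, a binding protein that also binds integrins, was listed at 0 in 2 D+Q hearts and 1 vehicle heart. Its other hearts had 0.345 TPM with D+Q and 0.133, 0.0406 and 0.282 TPM with vehicle, all under the filter, and it was not tested.

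**Figure D2:**
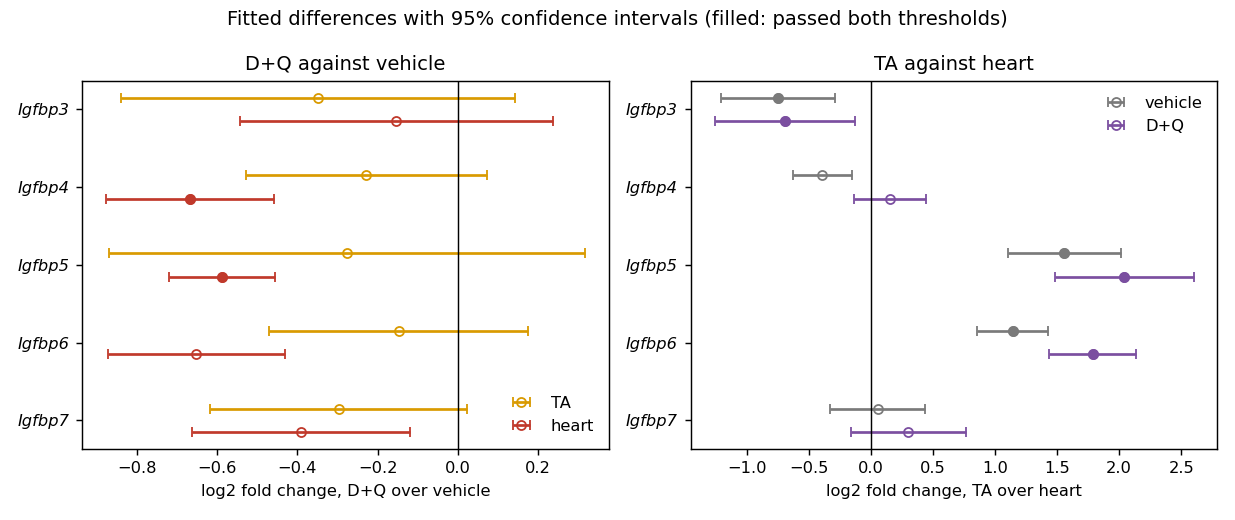
Fitted log2 fold changes (horizontal axes) of the 5 tested members with 95% confidence intervals, on the left for D+Q over vehicle in TA and heart and on the right for TA over heart in vehicle and D+Q mice. Filled points passed both thresholds, which in the treatment comparison were Igfbp4 and Igfbp5 in heart.

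The heart calls depended on the mice, the covariates and the settings of the fit. Called members fell to 0 in 13 of 19 alternatives, among them no filter on low values (adjusted p = 0.0693 for Igfbp5 and 0.141 for Igfbp4, limma), no trend in the prior variance (0.0817 and 0.124) and a replicate block (0.146 and 0.0755). Without D+Q replicate 3, the library whose sex genes go against its label, Igfbp5 was at -0.58 (adjusted p = 0.142, limma) and Igfbp4 at -0.60 (adjusted p = 0.222), with Igfbp6 at -0.70 (adjusted p = 0.207), Igfbp7 at -0.42 (adjusted p = 0.385) and Igfbp3 at -0.44 (adjusted p = 0.339). With sex read from Xist and Y-linked genes, all 3 D+Q hearts counted as female and the values were -0.67 (adjusted p = 0.0867) for Igfbp5, -0.70 (adjusted p = 0.122) for Igfbp4 and -0.77 (adjusted p = 0.0954) for Igfbp6. With no covariate they were -0.54 (adjusted p = 0.0829), -0.63 (adjusted p = 0.0565) and -0.60 (adjusted p = 0.0983). Among labelled females, 2 against 2, they were -0.58, -0.60 and -0.70 (adjusted p = 0.316, 0.418 and 0.418, limma). These equal the values without D+Q replicate 3 by construction, since both estimates compare the same 2 D+Q and 2 vehicle females. In each of the 7 fits that left out 1 heart, Igfbp4, Igfbp5, Igfbp6 and Igfbp7 kept a negative sign, with Igfbp5 between -0.63 and -0.56 and Igfbp4 between -0.76 and -0.60. Of these 7 fits, 6 called 0 members, with an unadjusted p under 0.05 in limma for 4 or 5 members each. In the fit without D+Q replicate 3, 1915 of all 15963 genes had an unadjusted p under 0.05. The fit without vehicle replicate 3 called 3 members, Igfbp6 being the third (adjusted p = 0.0471).

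Markers of other cell types and clock genes differed in summed level between the heart groups. Genes of the atrial and clock lists were called by limma, but 0 of the fibroblast, red cell, mesothelial and epicardial, and ventricular lists. The 7 atrial muscle markers summed to 387, 434 and 432 TPM in D+Q hearts and to 876, 4299, 2247 and 1124 TPM in vehicle hearts. Nppa made up most of the D+Q sums, with means of 404 TPM in D+Q and 1371 TPM in vehicle hearts. Myl7 averaged 4.00 and 412 TPM, Myl4 3.54 and 287 TPM, and Sln 0.211 and 32.6 TPM in the same order. All 7 had negative log2 fold changes, and 0 of the 7 were at 0 in any heart. For 6 of 7, all D+Q hearts were below all vehicle hearts (5.57% of all genes were). Of the 7, 4 were called (0.316% of all genes were), and 3 without D+Q replicate 3 (5 of all 15963 genes were). Vehicle heart replicate 1 had the lowest atrial sum of its group, and the lowest vehicle Myl7 was 94.1 TPM against at most 4.54 TPM in D+Q hearts. In replicate 1, Igfbp5 (67.8 TPM), Igfbp4 (61.3 TPM) and Igfbp6 (15.6 TPM) were above those of all D+Q hearts, as they were in every vehicle heart. The atrial sum of replicate 1, 876 TPM, was also above all D+Q sums, so this heart cannot separate atrial level from treatment. With the mean atrial level as covariate in place of sex, limma gave log2 fold changes of 0.07 for Igfbp5, 0.04 for Igfbp6 and -0.43 for Igfbp4 (adjusted p = 0.964, 0.985 and 0.817). In that model the covariate and treatment overlap, since the D+Q hearts have the 3 lowest atrial sums, and they cannot be told apart.

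The 8 fibroblast markers summed to 519 to 616 TPM in D+Q hearts and 649 to 922 TPM in vehicle hearts, and all 8 had negative log2 fold changes, with 0 called by limma. For 4 of the 8, Col1a1, Col1a2, Col3a1 and Dcn, the highest D+Q heart was below the lowest vehicle heart, as for 5.57% of all genes. Without D+Q replicate 3 it was also 4 of the 8 (7.39% of all genes), with 0 called and the D+Q sums at 591 and 616 TPM. Without that heart 7 of the 8 log2 fold changes were negative. Over all hearts the groups overlapped for Pdgfra, Lum, Dpt and Pi16. Pdgfra had 16.8 ± 3.12 TPM in D+Q hearts (SD, n = 3) and 17.2 ± 2.15 TPM in vehicle hearts (SD, n = 4). Its log2 fold change was -0.09, or 0.02 without D+Q replicate 3. A ratio to 100 TPM summed over the 8 fibroblast markers was computed after the values had been seen. Igfbp4 was at 6.65 to 7.15 TPM in D+Q hearts and 7.83 to 8.81 TPM in vehicle hearts. Igfbp5 was at 8.68 to 9.17 and 9.39 to 11.9 TPM and Igfbp6 at 1.88 to 2.08 and 2.19 to 2.70 TPM. These ranges did not overlap, but how many of all genes would not overlap on this scale was not computed, so nothing is concluded from them. Igfbp7 overlapped on this scale, at 16.7 to 19.3 TPM with D+Q and 17.6 to 19.4 TPM with vehicle. Igfbp3 also overlapped, at 3.01 to 4.95 and 3.06 to 3.67 TPM. Dcn made up most of the fibroblast sum, with means of 333 TPM in D+Q and 441 TPM in vehicle hearts.

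Red cell markers summed to 26.8 to 122 TPM in D+Q hearts and 346 to 1231 TPM in vehicle hearts (5 of 5 lower in all D+Q hearts, with and without replicate 3, beside 5.57% and 7.39% of all genes), mesothelial and epicardial markers to 10.7 to 12.8 and 14.5 to 20.1 TPM, and clock genes to 155 to 176 and 269.9 to 344 TPM. Of 11 clock genes, 1 was called higher and 6 lower, where 51 of all 16132 genes were called. Without D+Q replicate 3, 0 of the 11 were called, beside 5 of all 15963 genes. In that limma fit all 11 had an unadjusted p under 0.05, as had 1915 of the 15963 genes. Ventricular markers summed to 13368 to 14346 and 9629 to 11786 TPM, higher in every D+Q heart. Endothelial markers overlapped at 227 to 243 and 215 to 250 TPM, as did smooth muscle and pericyte markers at 490 to 528 and 413 to 607 TPM. Acta2 and Rgs5 made up most of the latter sum, with means of 263 and 209 TPM in D+Q hearts. Of its 7 genes, 0 were called and 6 had negative log2 fold changes. All D+Q hearts were below all vehicle hearts for 2, Myh11 (-0.53) and Tagln (-0.62), as for 5.57% of all genes. They were above for 1, Rgs5 (0.23), as for 9.63% of all genes. The part of these markers in the differences of the binding proteins was not tested.

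**Figure D3:**
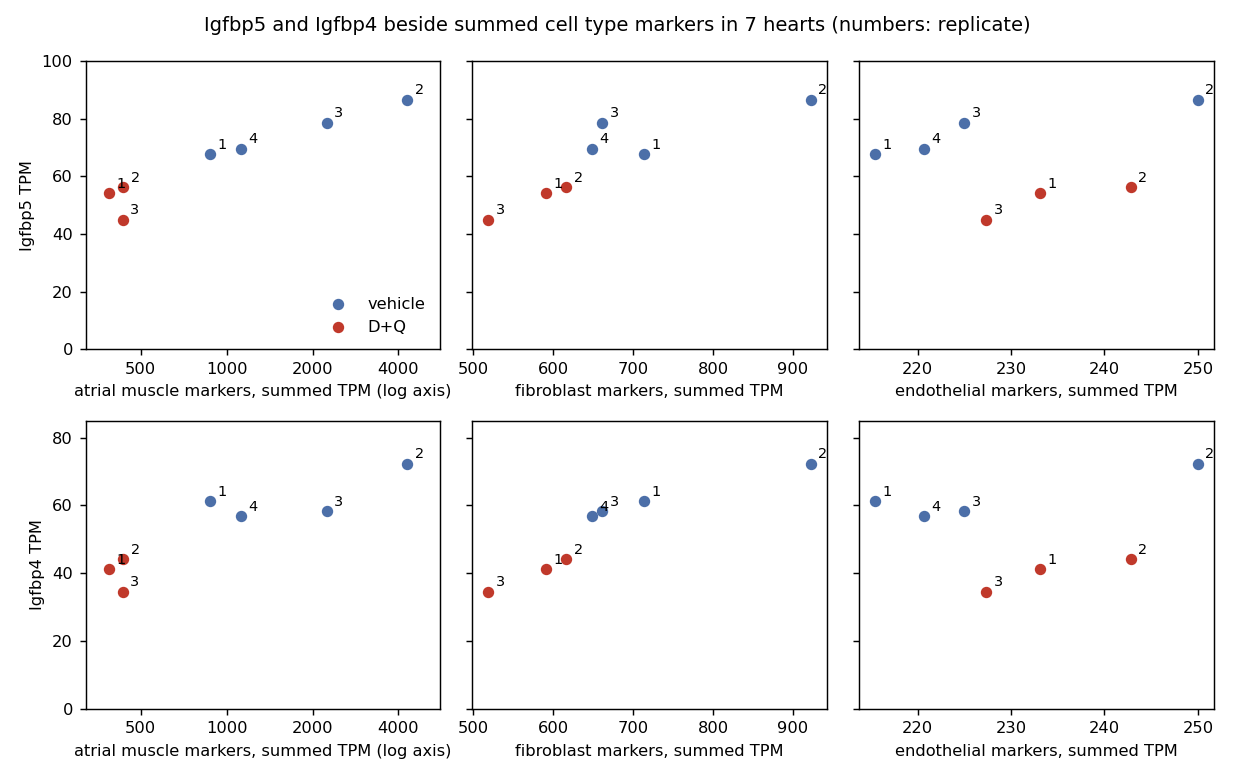
TPM of Igfbp5 (top) and Igfbp4 (bottom) in the 7 hearts against the summed TPM of atrial muscle (log axis), fibroblast and endothelial markers, with replicate numbers beside the points. The D+Q hearts had the lowest atrial and fibroblast sums (387 to 434 and 519 to 616 TPM), while their endothelial sums lay within the vehicle range.

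In TA, none of the members differed between D+Q and vehicle mice beyond the spread between mice. limma with 1 surrogate variable, an estimate of unlabelled variation between mice, called 0 of 5 members and 0 of 16298 genes (0%), and 488 genes (2.99%) and 0 members had an unadjusted p under 0.05. All 5 log2 fold changes were negative with a median of -0.28, as were 66.4% of all genes, whose median was -0.07. No member had groups that did not overlap, which 1.25% of all genes had with D+Q lower.

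Igfbp5 had 248.7, 168.0, 189.9 and 155.3 TPM in D+Q TA and 232.9, 380.2, 173.3 and 160.6 TPM in vehicle TA. Vehicle replicate 2, a female, stood far above the other 7 mice, and the remaining vehicle mice lay within the D+Q range. The group means were 190.5 ± 41.3 TPM and 237 ± 101 TPM (SD, n = 4 each), and the log2 fold change of -0.28 had a 95% interval from -0.87 to 0.32.

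Igfbp7 had 156, 112, 82.8 and 153 TPM in D+Q TA and 129, 156, 143 and 124 TPM in vehicle TA. The D+Q mice split into a pair above 3 of the 4 vehicle mice and a pair below all of them, and the log2 fold change of -0.30 (95% interval -0.62 to 0.02) had an unadjusted p of 0.0658 in limma, the smallest among the members. Igfbp4 had 44.6, 38.5, 38.3 and 42.6 TPM with D+Q and 46.8, 57.5, 44.4 and 41.1 TPM with vehicle. Its ranges met between 41.1 and 44.6 TPM, and its log2 fold change was -0.23 (95% interval -0.53 to 0.07).

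Igfbp6 had 40.7, 28.3, 35.6 and 44.1 TPM in D+Q TA and 35.1, 40.0, 42.0 and 39.9 TPM in vehicle TA, a log2 fold change of -0.15 (95% interval -0.47 to 0.18). Igfbp3 had 17.1, 9.38, 9.002 and 13.6 TPM with D+Q and 10.9, 20.4, 12.9 and 13.8 TPM with vehicle, a log2 fold change of -0.35 (95% interval -0.84 to 0.14). In both genes the ranges of the 2 groups overlapped. Igfbp2 stayed between 0.0412 and 0.382 TPM in the 8 TA and was not tested. The adjusted p was 0.999 for each tested member, and among males alone, 4 against 2, log2 fold changes ran from -0.15 to -0.0022 for Igfbp3, Igfbp4, Igfbp5, Igfbp6 and Igfbp7.

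Fibroblast markers summed to 1118 to 1851 TPM in D+Q TA and 1454 to 2104 TPM in vehicle TA, and endothelial markers to 127 to 194 and 151 to 221 TPM, overlapping in both. Vehicle TA replicate 2 had the highest Igfbp3, Igfbp4, Igfbp5 and Igfbp7 of the 8 TA. In the other tissue vehicle heart replicate 2, another mouse, had the highest of all 5 tested members among the 7 hearts.

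Whether the treatment difference itself differed between tissues was tested with an interaction term over all 15 mice. It called 0 of 5 members and 11 of 17868 genes (0.0616%), with an unadjusted p under 0.05 for 2 members, Igfbp4 and Igfbp6, and for 4.22% of all genes. For Igfbp4 the difference of TA from heart was 0.54 on the log2 scale (95% interval 0.17 to 0.92, adjusted p = 0.796, limma), and for Igfbp6 it was 0.64 (95% interval 0.19 to 1.09, adjusted p = 0.818). For Igfbp5 it was 0.48, with an interval from -0.24 to 1.20 that includes 0 (adjusted p = 1). Without D+Q heart replicate 3 the values were 0.45 for Igfbp4, 0.64 for Igfbp6 and 0.48 for Igfbp5 (adjusted p = 1 each). The separate calls in heart and not in TA are therefore not shown to differ between the tissues.

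The tissues differed most in Igfbp5 and Igfbp6, which were higher in TA, and in Igfbp3, which was lower there. Age, length of treatment and tissue change together in this comparison and cannot be told apart. In vehicle mice, limma over the 15 mice with labelled sex called 3 of 5 members, where 36.7% of 17868 genes were called (22.5% higher and 14.2% lower in TA). Igfbp5 was 2.95-fold higher in TA (log2 fold change 1.56, SE 0.21, adjusted p = 3.59e-05), with 160.6 to 380.2 TPM against 67.8 to 86.6 TPM in heart. Igfbp6 was 2.21-fold higher (1.14, SE 0.13, adjusted p = 7.56e-06), with 35.1 to 42.0 TPM against 15.4 to 21.7 TPM. Every vehicle TA exceeded every vehicle heart for both, as for 25.9% of all genes.

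Igfbp3 was 1.68-fold lower in vehicle TA (log2 fold change -0.75, SE 0.21, adjusted p = 0.0111, limma), although its highest TA (20.4 TPM) just passed its lowest heart (20.3 TPM). Igfbp4 was at -0.39 (SE 0.11, adjusted p = 0.0101), short of the minimum fold change. Igfbp7 had about the same level in both tissues, 138 ± 14.6 TPM in TA and 134 ± 21.2 TPM in heart (SD, n = 4 each), and its log2 fold change of 0.05 had a 95% interval from -0.33 to 0.43.

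In D+Q mice the same 3 members were called, where 34.7% of all genes were called (21.4% higher and 13.3% lower in TA). Igfbp5 was 4.11-fold higher in TA (log2 fold change 2.04, SE 0.26, adjusted p = 2.58e-05, limma), with 155.3 to 248.7 TPM against 45.0 to 56.2 TPM. Igfbp6 was 3.45-fold higher (1.79, SE 0.16, adjusted p = 8.81e-07), with 28.3 to 44.1 TPM against 10.2 to 12.8 TPM. For both, all D+Q TA were above all D+Q hearts, as for 26.8% of genes. Igfbp3 was at -0.70 (SE 0.26, adjusted p = 0.05 after rounding, just inside the threshold), with all D+Q TA below all D+Q hearts, as for 19.9% of genes, and at -0.31 (adjusted p = 0.516) without D+Q heart replicate 3, where Igfbp5 was at 2.03 and Igfbp6 at 1.78 (adjusted p = 0.000789 and 5.01e-05). Igfbp4 at 0.15 (adjusted p = 0.411) and Igfbp7 at 0.30 (adjusted p = 0.298) were not called.

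TPM scaling mattered for these tissue contrasts. Over all genes the median log2 fold change was 0.16 in both, and rescaling by median-of-ratios factors moved it to -0.00032 in vehicle and 0.0024 in D+Q mice, with the calls going from 4027 higher and 2532 lower to 2930 and 3304 in vehicle, and from 3829 and 2372 to 2957 and 3266 in D+Q mice. Igfbp5 and Igfbp6 remained higher and Igfbp3 lower in TA under this scaling, while Igfbp4 in vehicle mice moved to -0.58 (adjusted p = 2.11e-05) and was called.

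The other genes of the IGF axis, 24 in the list and 19 tested in each tissue, gave 0 calls in heart and 0 in TA for D+Q against vehicle. The growth factor Igf1 had 7.27, 6.87 and 8.34 TPM in D+Q hearts and 16.3, 13.0, 9.56 and 14.0 TPM in vehicle hearts. Its groups did not overlap, and its log2 fold change was -0.70 (SE 0.12, adjusted p = 0.0878, limma), or -0.62 (adjusted p = 0.294) without D+Q replicate 3. Igf2 was at -0.02 and the signalling receptor Igf1r at -0.04 in heart. Irs1, a docking protein that relays the receptor signal, was at 0.62 (adjusted p = 0.0597) and Igf2r, the receptor that clears IGF-II, at 0.26 (adjusted p = 0.0969), both higher in every D+Q heart, as for 9.63% of all genes. Without D+Q replicate 3, Irs1 was at 0.58 (adjusted p = 0.26) and Igf2r at 0.25 (adjusted p = 0.305). For Igf1, Stc1, Kazald1 and Lrp1, 4 of the 19 genes, all D+Q hearts lay under all vehicle hearts, beside 5.57% of all genes. Without D+Q replicate 3 limma again called 0 of the 19, and 6 had an unadjusted p under 0.05, as had 1915 of all 15963 genes tested. Among genes that act on the binding proteins, the protease Pappa was at -0.10, its inhibitors Stc1 and Stc2 at -0.46 and 0.07, and the proteases Htra1 and Adam12 at 0.06 and -0.23, with adjusted p of 0.241 or more. Ctsd, a lysosomal protease and the most abundant one in the list, had 344 ± 20.7 TPM in D+Q hearts (SD, n = 3) and 298 ± 33.6 TPM in vehicle hearts (SD, n = 4), a log2 fold change of 0.17 (adjusted p = 0.17, limma) that was 0.12 (adjusted p = 0.534) without D+Q replicate 3.

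Between tissues, the axis had 6 genes higher and 3 lower in vehicle TA of 20 tested, beside 36.7% of all genes called. The ligands Igf1 (log2 fold change 0.92, adjusted p = 0.00155, limma) and Igf2 (2.21, adjusted p = 3.75e-05) were higher in TA, with Igf2 at 60.2 ± 42.4 TPM in vehicle TA and 10.9 ± 2.28 TPM in vehicle heart (SD, n = 4 each). Adam12, Klk1, Itgb1 and Irs1 were also higher, and the insulin receptor Insr (-0.69), the protease Htra1 (-0.64) and Stc2 (-1.03) were lower. The carrier subunit Igfals, the protease Pappa2 and the relatives Igfbp1 and Igfbpl1 were under the filter, Igfbp1 being listed at 0 in all 7 hearts.

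**Figure D4:**
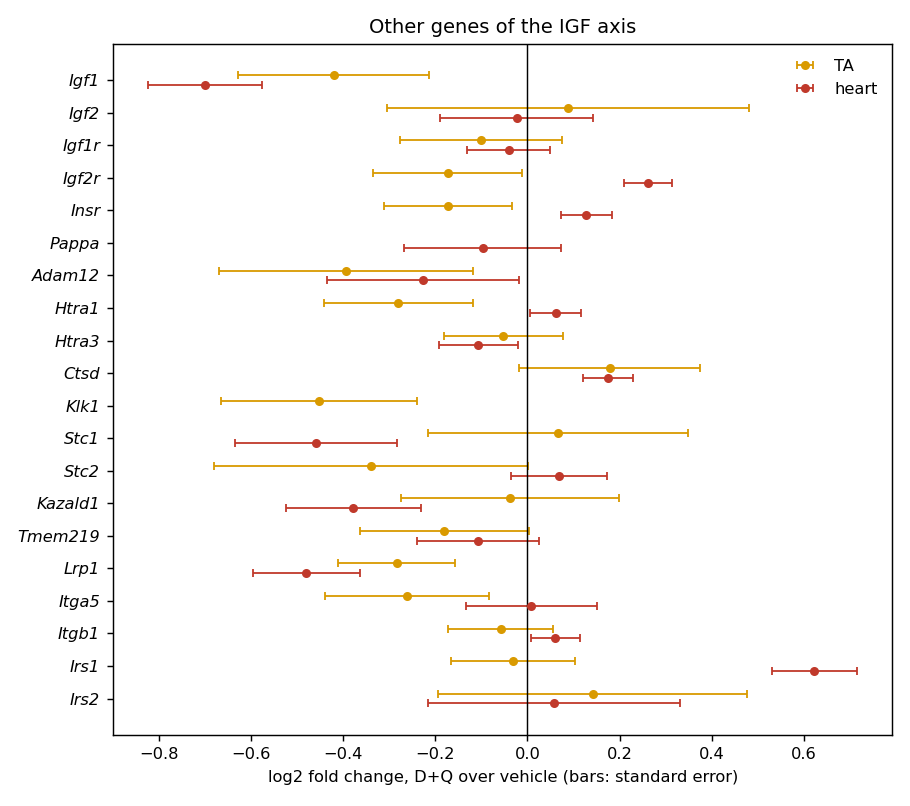
Log2 fold changes of the other IGF axis genes (horizontal axis, bars showing the standard error) for D+Q over vehicle in TA and in heart, for each gene tested. No gene passed the thresholds in either tissue, with Igf1 at -0.70 and Irs1 at 0.62 farthest from 0 in heart.

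With each gene centred on its group means, the members varied together to different degrees over the 15 mice, as a description over libraries that share tissue composition and scaling. Pearson's r was 0.794 between Igfbp4 and Igfbp5, 0.754 between Igfbp3 and Igfbp7, and 0.207 between Igfbp5 and Igfbp6, the lowest of the 10 pairs. Over 14913 other genes, the closest were Ltbp3 (0.946), Scarf2 (0.924) and Wipf1 (0.913) for Igfbp4, and Ntn4 (0.964), Smad1 (0.951) and Sod3 (0.947) for Igfbp7. For Igfbp5 they were Zbed6 (0.901), Utrn (0.894), which encodes utrophin, the relative of dystrophin, and Gm17823 (0.892). For Igfbp6 they were Tlcd3a (0.920), Twist1 (0.908) and Rpl17 (0.882), a ribosomal protein gene whose reads may be shared with near-identical copies, and for Igfbp3 they included Zfp105 (0.930) and Fmr1 (0.929).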

How the data were processed

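RNA from snap-frozen TA and heart was made into mRNA libraries. The submitters' processing notes name Trim Galore 0.6.10, Salmon 1.10.3 and GRCm39, and the study's methods add a summary per gene with tximport. The authors deposited TPM for 56980 genes with no filter and no covariate removed, and GENCODE M39 gave symbols for 56236 identifiers. Counts and depth are unknown, so no count test or counting interval was possible. The study's own test on counts was not run.

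log2(TPM + 0.5) was fitted with limma 3.58.1 in R 4.3.3 (lmFit, eBayes with trend) for genes reaching 0.5 TPM in 3 or more mice. This scale understates changes of low genes. The TA model held 1 surrogate variable, written out here in 5 re-weighting rounds. The heart model held labelled sex, and tissue contrasts and the interaction came from 1 model of 4 groups and labelled sex over 15 mice. Adjustment followed Benjamini and Hochberg over all genes tested, and 95% intervals came from the fits. The code was tested on simulated data.

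The members, marker lists, IGF axis list and tests were chosen with earlier results of these data known. Named genes are the 6 members, listed IGF axis genes, and the 3 genes most correlated with each member, of which 1 is not reported here. Xist was named outside that rule. So were markers of the fibroblast, atrial, senescence, and smooth muscle and pericyte lists, after their values were seen. No 2 libraries were identical (correlations within groups 0.977 to 0.991). The labels give groups the same replicate numbers, but the mice are different animals, and deviations of same-numbered mice correlated between -0.304 and 0.0534, so the numbers were not treated as pairs. The labels do not give litters or batches. Alternatives were other pseudocounts, filters, scaling, prior variance, covariates, sexes and leaving out each mouse.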

Additional observations from a re-analysis of the deposited data

How the results depend on the processing

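Across the alternatives, 524 refitted member fold changes kept their direction and their side of the threshold, 40 lost the call, 5 gained it and 16 reversed. The 2 members called in heart became 0 with no filter on low values, no trend in the prior variance, a replicate block, no covariate, sex read from expression, the atrial list as covariate and labelled females only, and 0 to 3 when each heart was left out, with 4 or 5 members at an unadjusted p under 0.05 in limma in these fits and 0 with the atrial list. The 51 genes called in heart became 0 with no filter (3731 of 30262 at an unadjusted p under 0.05), 13 without the trend, 4 with the replicate block, 25 with sex read from expression, 0 with the atrial list as covariate (987 at an unadjusted p under 0.05) and 9 in labelled females, and 0 (without vehicle replicate 2, where 2154 had an unadjusted p under 0.05) to 136 (without vehicle replicate 3) leaving out single hearts. In the heart fit without D+Q replicate 3, 1915 of 15963 genes had an unadjusted p under 0.05 in limma. The 0 genes called in TA became 0 to 2 leaving out single mice. The 11 genes of the interaction became 6 with no filter, 5 with the replicate block and 5 to 14 leaving out single mice, the 5 without heart D+Q replicate 3. The block changed no member's call outside the heart treatment comparison. The cause of these shifts was not tested, except that fewer mice or more genes entered where a mouse or the filter was dropped.

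Reversed log2 fold changes were, in heart with the atrial list as covariate, Igfbp3 at 0.23, Igfbp5 at 0.068 and Igfbp6 at 0.042, and Igfbp3 leaving out single hearts (-0.44 to 0.0060). Under median-of-ratios scaling Igfbp7 moved to -0.13 in vehicle TA against heart and Igfbp4 to -0.040 in D+Q TA against heart. Leaving out single mice moved Igfbp7 in vehicle TA against heart between -0.025 and 0.15. In the interaction, Igfbp3 was -0.095 with the replicate block, -0.10 with no covariate and -0.12 to 0.44 leaving out single mice. None of these reversed values was called. The call of Igfbp3 in D+Q TA against heart was lost in 15 of 26 alternatives. Depth is unknown, so no counting limit can be given.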

Other observations

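As shares of the summed TPM of the 6 members, Igfbp5 made up 48.3% ± 7.85 in vehicle TA and 46.9% ± 6.48 in D+Q TA (SD, n = 4 each), against 24.2% ± 1.89 in vehicle heart (n = 4) and 22.8% ± 1.69 in D+Q heart (n = 3). Igfbp7 made up 29.8% ± 4.74, 30.7% ± 5.82, 42.6% ± 2.43 and 44.9% ± 1.35 in the same order. Igfbp4 lay between 19.3% and 20.3% of the sum in vehicle hearts and between 16.0% and 18.8% in D+Q hearts. The sum itself was 230.1, 234.8 and 216 TPM in D+Q hearts and 305, 373, 297 and 279.5 TPM in vehicle hearts. It did not overlap, as for 5.57% of all genes, and neither did Igfbp4, Igfbp5 and Igfbp7, its largest parts there. In D+Q and vehicle TA the sum was 356 to 507 and 379.9 to 655 TPM, which overlapped. The shares of the members and their sum were not tested.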
